A study of Daphnia magna with 2 samples.

Results

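MSP300 is the Drosophila nesprin, and SYNE1, its human counterpart, encodes nesprin-1. The genes described were chosen by symbol: all genes of the deposited gene list whose fly symbol is MSP300, which were 2 of 33957 genes, 9030 of which carry a human or fly symbol. SYNE1/MSP300 itself was selected from measured values, namely its high level in the young sample and the drop of that level when 1 library code is left out, so its levels per sample, code and depth are given as descriptions. The first gene, DAPMA1EVG018311, held nearly all counts. The second gene, m000015F_s0.9, follows it in the gene list, lies on the same contig 000015F and has no transcript identifier of the DAPMA1EVG series. It held 0 counts among the 12067158 UMIs of the young sample, which allows up to 0.249 CPM (counts per 1000000 UMIs), and 1 count in the mixed sample, in a barcode of code FO2. All values below are therefore those of DAPMA1EVG018311, called MSP300.

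Nesprins are giant proteins built from spectrin repeats and anchored by a KASH domain in the outer nuclear membrane. There they bind SUN-domain proteins of the inner membrane, and the bridge so formed, the LINC complex, ties the nucleus to actin and microtubules. In Drosophila, MSP300 is known for holding and spacing the nuclei of muscle fibres and for its links to the Z-discs of the sarcomere.

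The data are single-cell RNA counts from whole bodies of the water flea Daphnia magna, dissociated with collagenase at 4 mg/ml and made with inDrops, a droplet method in which each transcript is counted by a unique molecular identifier (UMI) and each droplet by a barcode. One sample was labelled young and the other a mixture of male, female, young and old animals, so there was 1 sample per group. Neither strain nor the number of animals was given in the sources used here, and the samples differ both in their animals and in which barcodes were deposited, so a difference between them cannot be assigned to either. The barcode lists give 10 library codes, 3 of the young sample (CH1, CH2, Y2) and 7 of the mixed one (F4W, FO1 and FO2, FYB and FYH, MY1 and MY2), whose meaning the labels do not spell out.

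Barcodes with at least 500 UMIs were kept, 2099 in the young sample with 2314350 UMIs and 2253 in the mixed sample with 2779211 UMIs. Per code, 41 (F4W) to 1103 (FYB) barcodes were kept. The young files list 442368 barcodes, 59936 of them empty, and the mixed files 48846, none under 57 UMIs. The lists identify a barcode by a running number, so barcodes shared between libraries could not be counted. Barcodes are not replicates, and no p-value is given. The intervals are at 95% and cover counting error only. Code Y2 stood apart for MSP300 among the young codes, so values are given with and without it.

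MSP300 was high in every young code and low in every mixed code. In Y2 it reached 28646 CPM (15033 counts), in CH1 7803 CPM (7384 counts) and in CH2 5829 CPM (4915 counts). Among the mixed codes, MY2 had 540 CPM (333 counts), MY1 336 CPM (103 counts), FYH 331 CPM (72 counts) and FYB 248 CPM (329 counts). The lowest levels were 52.2 CPM in FO2 (9 counts), 50.2 CPM in FO1 (5 counts) and 0 counts in F4W, where the interval reaches 92.0 CPM. The lowest young code was therefore 10.8-fold above the highest mixed code (interval 9.65 to 12.1). MSP300 was chosen for its high young level, and the share of all genes with such a gap was not counted.

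Within the order of the codes, 3 pairs of neighbours could not be told apart at this depth. MY1 exceeded FYH by a ratio of 1.02 (0.744 to 1.39) and FO2 exceeded FO1 by 1.04 (0.313 to 3.95), and FO1 and F4W did not differ beyond counting error either. The other neighbours differed beyond it. Y2 exceeded CH1 3.67-fold (3.57 to 3.78), CH1 exceeded CH2 1.34-fold (1.29 to 1.39), MY2 exceeded MY1 1.61-fold (1.29 to 2.03), FYH exceeded FYB 1.33-fold (1.02 to 1.73) and FYB exceeded FO2 4.75-fold (2.47 to 10.5). FYB, the code with the most kept barcodes, thus lay below both MY codes.

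**Figure D1:**
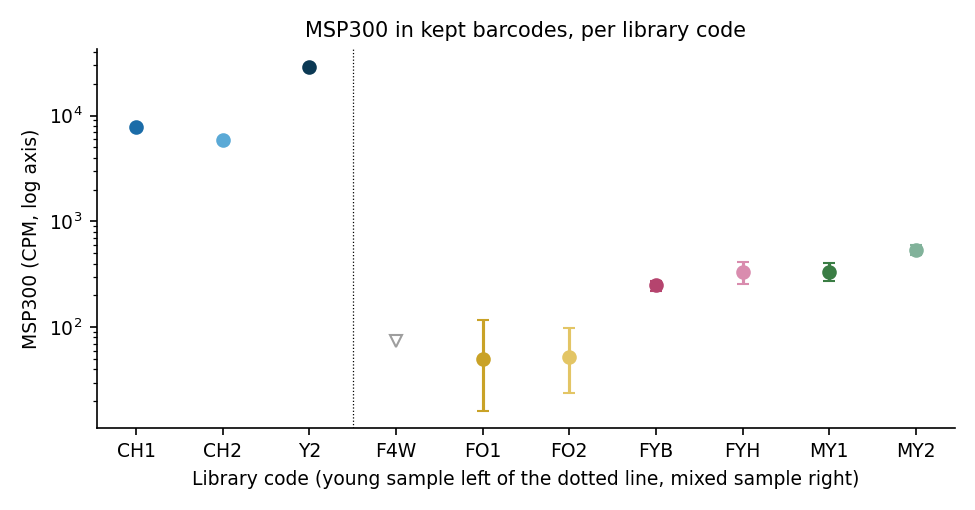
Level of MSP300 in each library code, in CPM of the summed counts of kept barcodes on a log axis, with exact Poisson intervals at 95%. The 3 young codes lie between 5829 and 28646 CPM and the 7 mixed codes at or below 540 CPM. F4W has 0 counts, and its open triangle marks 74.8 CPM, the level of 3 counts at its depth.

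MSP300 ranked 1 among all genes in Y2, 4 in CH1 and 4 in CH2. In the mixed codes its rank was 255 in MY2, 572 in FYH, 578 in MY1 and 821 in FYB. Over the sums, MSP300 had 11810 CPM (11670 to 11951) in the young sample and 306 CPM (286 to 327.5) in the mixed sample, a 38.6-fold difference (36.0 to 41.3). Without Y2 the young sum had 6873 CPM and the ratio was 22.4. A gene was counted as different from a ratio of 4 in either direction, over the 8011 genes with at least 50 counts in both sums together. By this rule 11.1% of genes were lower in the mixed sample and 13.6% higher, and 299 genes had a mixed to young ratio at or below that of MSP300. The log2 ratio of MSP300, mixed over young, was -5.27, beside a median of 0.52 over all genes tested.

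Inside the young sample, MSP300 was 4.17-fold higher in Y2 than in CH1 and CH2 together (4.07 to 4.27), a ratio at which it ranked 252 of 5638 genes. Of these genes 5.18% were at least 4-fold higher in Y2 and 9.15% at least 4-fold lower. The 2 lanes given in the mixed barcode list (L1 and L2) had MSP300 levels of 302 CPM (272.5 to 333) and 310 CPM (283 to 340), intervals that overlap.

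From 500 UMIs on, deeper young barcodes held smaller shares of MSP300. In barcodes of 1 to under 100, 100 to under 200, 200 to under 500, 500 to under 1000, 1000 to under 2000 and at least 2000 UMIs, MSP300 took 2.88%, 3.60%, 3.64%, 2.20%, 0.801% and 0.243% of all UMIs. Barcodes of 100 to under 200 UMIs thus had 35966 CPM and those of at least 2000 UMIs 2426 CPM, a ratio of 14.8 (14.1 to 15.6). In this comparison 17.4% of 5907 genes were at least 4-fold higher in the shallow barcodes and 37.9% at least 4-fold lower, and MSP300 ranked 269.

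The count per barcode did not follow the total either. Young barcodes of 100 to under 200 UMIs held 4.97 ± 3.04 MSP300 counts (mean ± SD over 25755 barcodes) beside 133 counts of other genes. Barcodes of 200 to under 500 UMIs held 10.2 ± 6.75 (9300 barcodes) and those of 500 to under 1000 UMIs 15.0 ± 15.5 (1292 barcodes). Above that depth the mean over all young codes went down, to 11.2 ± 15.6 in barcodes of 1000 to under 2000 UMIs (575 barcodes). In those of at least 2000 UMIs it was 6.63 ± 7.82 (232 barcodes). The counts of other genes meanwhile rose from 666 to 1382 and 2726 per barcode. Y2 gave 412 of the 1292 barcodes of 500 to under 1000 UMIs and 98 of the 575 of 1000 to under 2000. Within codes, the mean between them went from 10.5 to 7.02 in CH1, 7.23 to 7.29 in CH2 and 27.7 to 30.6 in Y2. From barcodes of 100 to under 200 UMIs to those of at least 2000, the mean went from 4.74 to 5.55 in CH1, from 4.76 to 4.45 in CH2 and from 5.74 to 12.96 in Y2. These end values were thus similar in CH1 and CH2, and in Y2 the deeper one was higher, but in each code the mean was higher in between. The highest means were 10.5 in CH1 (500 to under 1000 UMIs) and 8.285 in CH2 (200 to under 500). In Y2 the highest mean was 30.6, at 1000 to under 2000 UMIs.

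All 3 young codes had this fall, at different depths. In CH1, MSP300 made up 3.46% of UMIs at 100 to under 200 UMIs, 1.51% at 500 to under 1000 and 0.199% at 2000 or more. CH2 had 3.495%, 1.04% and 0.162% in the same bins. Y2 had 3.99% at 100 to under 200 UMIs, still 4.27% at 500 to under 1000 UMIs, 2.21% at 1000 to under 2000 and 0.502% at 2000 or more. The codes were thus close to each other in shallow barcodes and far apart from 500 UMIs on. The ratio of Y2 to CH2 was 4.91 (4.76 to 5.08) over kept barcodes, 1.14 in barcodes of 100 to under 200 UMIs and 3.10 in those of at least 2000 UMIs, the last 2 values from comparisons added after the data were seen. In kept barcodes 8.25% of 4378 genes were at least 4-fold higher in Y2 than in CH2 and 7.88% at least 4-fold lower.

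The mixed sample had no such fall. Its MSP300 level was 116, 147, 207, 299.8, 353 and 266 CPM from the shallowest to the deepest bin. Barcodes of 100 to under 200 UMIs had 0.5525 times the level of those of at least 2000 UMIs (0.469 to 0.652), a comparison in which 5.41% of 6410 genes were at least 4-fold higher and 4.49% at least 4-fold lower in the shallow barcodes. Within codes this ratio was 0.710 (0.551 to 0.923) in FYB and 0.670 (0.444 to 0.986) in MY2, and 0.743, 1.06 and 1.13 in FYH, MY1 and FO2. Even in barcodes of at least 2000 UMIs, where the young level was lowest, the samples had 2426 and 266 CPM.

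**Figure D2:**
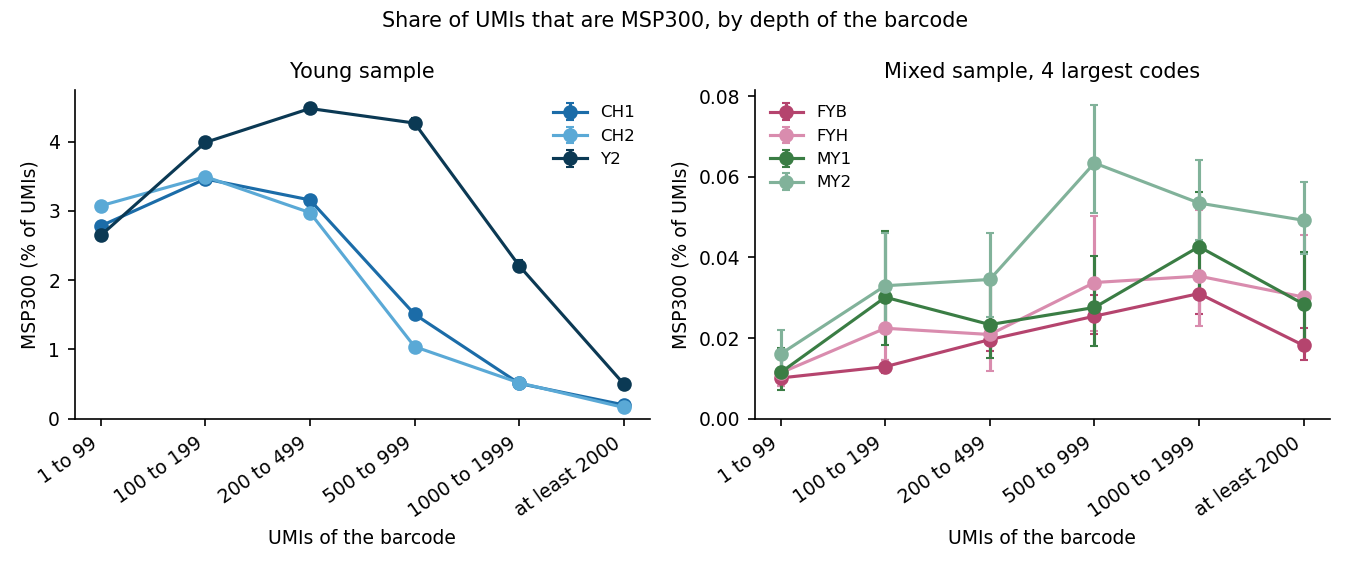
MSP300 as percent of all UMIs, by UMI depth of the barcode, for the 3 young codes (left) and the 4 mixed codes with the most kept barcodes (right, on its own scale), with exact Poisson intervals at 95%. Y2 is still at 4.27% at 500 to under 1000 UMIs, where CH1 is at 1.51% and CH2 at 1.04%, and the mixed codes are below 0.1% in every bin.

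Nearly every kept young barcode held MSP300. Of kept young barcodes 95.1% had at least 1 UMI of it, at a median depth of 829 UMIs, and 103 of 2099 had none, 41 in CH1, 59 in CH2 and 3 in Y2. The share was 15.4% in the 345278 young barcodes of 1 to under 100 UMIs and 87.5% in those of at least 2000. It was 97.4% in barcodes of 100 to under 200 UMIs, so holding a UMI did not set kept young barcodes apart from these. Whether such a UMI came from a cell of that barcode was not tested. In the mixed sample 21.2% of kept barcodes had a UMI, at a median depth of 940 UMIs, and 1.82% of barcodes of 100 to under 200 UMIs.

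With each barcode thinned at random to 500 UMIs, 87.0% (85.5 to 88.45) of young and 11.8% (10.5 to 13.2) of mixed barcodes had an MSP300 UMI. Among young codes this share was 95.7% in Y2, 84.7% in CH1 and 81.04% in CH2. Among mixed codes it was 19.7% in MY2, 13.4% in MY1, 11.2% in FYH, 9.52% in FYB, 1.38% in FO2 and 1.15% in FO1, and 0 of 41 barcodes in F4W. The order of the codes was that of the summed levels.

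The counts per kept young barcode had a median of 7, quartiles of 3 and 18 and a highest value of 100. By code, the median was 25 in Y2 (quartiles 14 and 37), 5 in CH1 (3 and 10) and 4 in CH2 (2 and 8.25). As a share of the barcode's own UMIs, the median was 3.69% in Y2, 0.558% in CH1 and 0.439% in CH2, and the highest share was 12.03%, in a CH1 barcode. In the mixed sample 1776 of 2253 barcodes had 0 and the highest count was 15.

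MSP300 was unevenly spread over the barcodes of each young code. The tenth of barcodes richest in MSP300 held 24.3% of its counts in Y2, 41.1% in CH1 and 38.7% in CH2. In MY2, where 272 of 452 barcodes had 0 counts, the share was 49.6%. It was 61.2% in MY1, 70.8% in FYH and 78.7% in FYB. Low counts alone raise this share, so mixed and young codes are not compared by it. At 500 UMIs per barcode, 42.9% of Y2 barcodes had 20 to 39 MSP300 UMIs and 5.21% had 40 or more, beside 6.27% and 0.964% in CH1. Most CH1 barcodes were in the classes of 0 to 4 UMIs and most Y2 barcodes in those of 10 or more, but both codes had barcodes in every class.

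**Figure D3:**
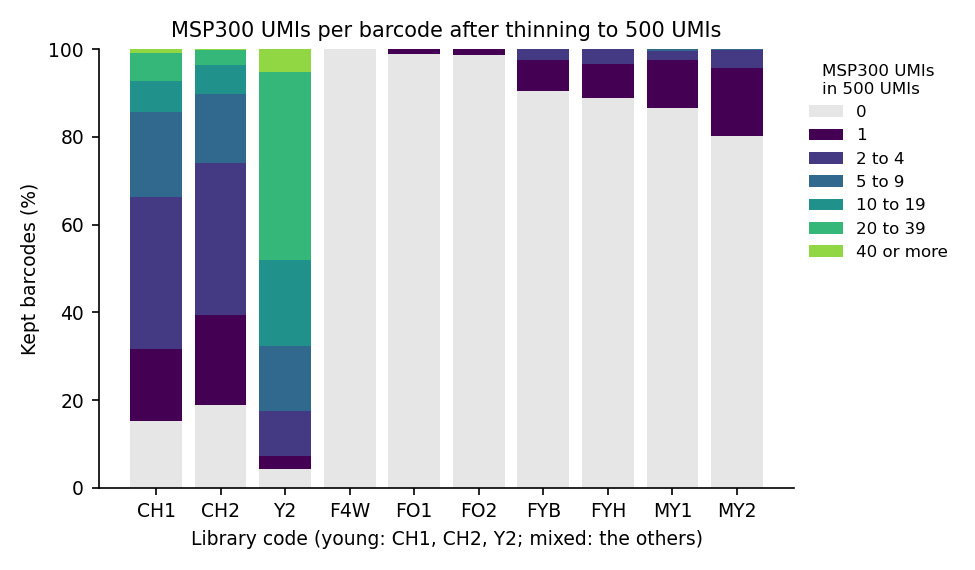
Kept barcodes of each of the 10 library codes by their MSP300 UMIs after thinning to 500 UMIs, as stacked percent of the barcodes of the code. Y2 has 42.9% of its barcodes at 20 to 39 UMIs and CH1 6.27%, and in each mixed code most barcodes have 0.

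The variance over the mean of the thinned counts, which is 1 when counts vary by sampling alone, was 12.1 for MSP300 in CH1, 8.33 in CH2 and 8.69 in Y2. Among genes of at least 1000 CPM in the code, MSP300 ranked 16 of 144 in CH1, 26 of 143 in CH2 and 16 of 105 in Y2, where the median gene had 2.58, 2.45 and 1.82. In barcodes of 100 to under 200 UMIs thinned to 100, the ratio was 1.33, 1.41 and 1.48, beside medians of 1.09, 1.10 and 1.04. MSP300 then ranked 32 of 144, 35 of 143 and 2 of 105. In barcodes of at least 1000 UMIs thinned to 1000, it ranked 50 of 144, 53 of 143 and 15 of 105. The ratio grows with the mean count, so its values at 100, 500 and 1000 UMIs are not on one scale. By level MSP300 ranked 4, 4 and 1 in these codes, so its ranks here were not separated from its level. Compared with 500 UMIs, it ranked lower at 100 UMIs in CH1 and CH2 and higher in Y2. At 1000 UMIs it also ranked lower in CH1 and CH2.

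The genes most like MSP300 were named by the mean over codes of the within-code Pearson r of log2(counts per 10000 + 1), in barcodes of at least 1000 UMIs. In the young sample this used 807 barcodes of 3 codes and 4294 genes, whose median r was -0.06. These barcodes share libraries, depth differences and any free RNA, and the values are descriptions. Altogether 86 genes, 2.003% of all, had an r of at least 0.3, and 70 had an r of -0.3 or lower.

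The closest gene was MT-ND1/MT:ND1 (s000357F_p0.2), whose symbol is that of a respiratory complex I subunit encoded by the mitochondrial genome. Its r with MSP300 was 0.68, from 0.57 in CH2 to 0.85 in Y2. It had 8838 CPM in the young and 5.76 CPM in the mixed sum. The gene s000362F_p0.3, without a symbol, followed with 0.68, and MT-ND1/MT:ND1 (s000362F_p0.4) on that contig had 0.50. The latter had 1636 CPM in young and 0 counts in mixed barcodes, at least 1232-fold lower there by the limit of the interval.

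The third gene, PRDM1/BLIMP (DAPMA1EVG019776), a zinc finger repressor of transcription, had an r of 0.67 (0.58 in CH1, 0.63 in CH2, 0.80 in Y2) and 4019 CPM in the young beside 121 CPM in the mixed sum. LRRK1/LRRK (DAPMA1EVG033871), a leucine-rich repeat kinase, had an r of 0.52, with 1656 and 15.8 CPM. LGR4/TRN (DAPMA1EVG007070), named after the fly leucine-rich repeat membrane protein tartan, had 0.49, with 1380 CPM in young and 2 counts in mixed barcodes. CHDH/CG9518 (DAPMA1EVG021177), related to choline dehydrogenase, had 0.49, with 1473 and 26.3 CPM. The other 3 of the 10 highest, DAPMA1EVG023349, DAPMA1EVG032262 and DAPMA1EVG026052, carry no symbol and had 0.60, 0.50 and 0.49.

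These genes shared the between-sample and depth pattern of MSP300. All 10 were at least 4-fold lower in the mixed sample, and each was 7.65- to 31.0-fold higher in young barcodes of 100 to under 200 UMIs than in those of at least 2000. Of the 86 genes, 82 were at least 4-fold lower in the mixed sample (95.3%, beside 12.8% of the 4294 genes) and 82 at least 4-fold higher in the shallow young barcodes (beside 11.6%). Together the 86 genes held 8.22% of young and 0.359% of mixed kept counts. A symbol was present for 54.7% of them, beside 70.4% of the 4294. MSP300 was chosen from that sample difference and the r comes from the same counts, so these shares describe the group and are no separate evidence.

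At the other end, CTSS/CP1 (DAPMA1EVG024005), a cathepsin protease, had the lowest r at -0.42. NCL/CSTF64 (DAPMA1EVG012178), an RNA-binding protein, had -0.40, WDR43/CG30349 (DAPMA1EVG032634), a factor of ribosome assembly, -0.39, RNF186/TN (DAPMA1EVG031573), named after a fly ubiquitin ligase, -0.38, and DAPMA1EVG015880 -0.38. Of the 70 genes at -0.3 or lower, 2 were at least 4-fold lower in the mixed sample and 0 were at least 4-fold higher in shallow young barcodes. Their median log2 ratio of shallow to deep barcodes was -2.85, beside -1.87 over the 4294 genes.

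**Figure D4:**
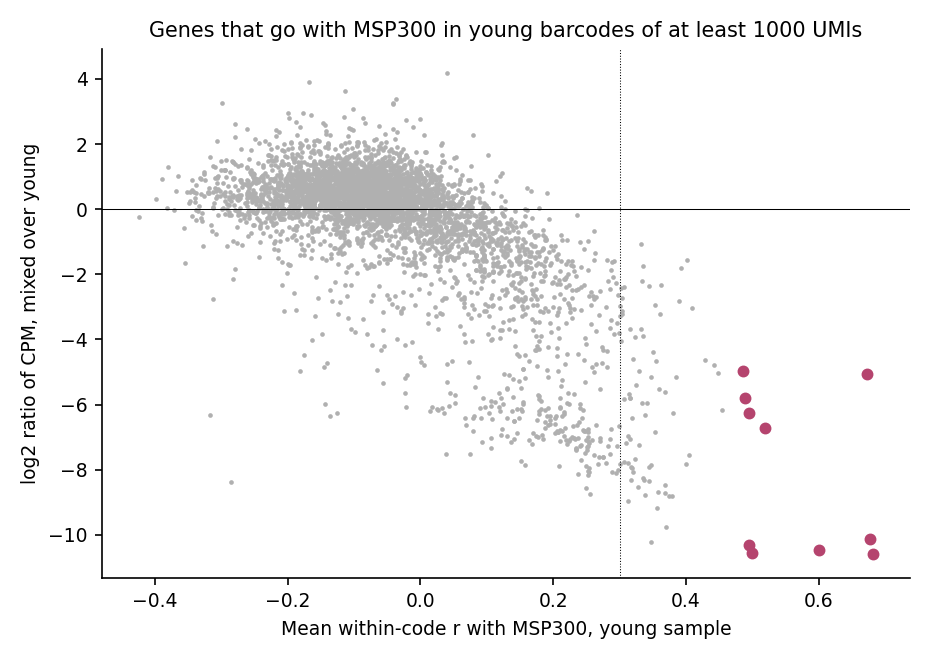
Each of the 4294 points is a gene, with its mean within-code r with MSP300 in young barcodes of at least 1000 UMIs on the x axis and its log2 ratio of CPM, mixed over young, on the y axis. The dotted line marks an r of 0.3, and the large points are the 10 highest genes, all of which are at least 4-fold lower in the mixed sample.

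The 10 highest genes stayed the 10 highest with Spearman's rho and with barcodes thinned to 1000 UMIs, where their r was 0.40 to 0.59. With a minimum of 2000 UMIs, 7 of them were among the 10 highest and 9 among the 20 highest. With a minimum of 500 UMIs, and without CH2, 9 of them were among the 10 highest. Without Y2, 6 of them were among the 10 highest and 9 among the 20 highest, and 41 genes in place of 86 had an r of at least 0.3.

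In the mixed sample no gene reached an r of 0.3 with MSP300 over 1019 barcodes of 6 codes and 5121 genes. The highest were ERCC6/DOM (DAPMA1EVG016661), named after a fly chromatin remodeller, at 0.27, DAPMA1EVG013129 at 0.24 and BICRAL/CG11873 (DAPMA1EVG028029) at 0.22. They were followed by CLSTN2/CALS, CHD7/KIS, SEMA6D/SEMA2A, DAPMA1EVG016809, SLC8A1/CALX, DAPMA1EVG011921 and ZNF513/CG12299, and the lowest were DAPMA1EVG026936, HSPA8/HSC70, DAPMA1EVG022101, DAPMA1EVG014808 and DAPMA1EVG022164, down to -0.20. With a mean of 0.102 (FO2) to 0.976 (MY2) MSP300 counts per barcode, values this weak are no finding.

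The other genes of the nuclear envelope are given beside MSP300, which was chosen for its high young level, so their smaller ratios are no finding. Of 10 genes matched by symbol to the LINC complex and nuclear envelope, 8 had enough counts. In the mixed sample 1 was at least 4-fold higher and 1 at least 4-fold lower, near the 13.6% and 11.1% of all genes. The median log2 ratio was 0.85, beside 0.52 over all genes. SUN1/KOI (DAPMA1EVG026610), the SUN-domain partner of nesprins, had 289 CPM in the young and 333 CPM in the mixed sum, 1.15 times the young level (1.04 to 1.28). LMNA/LAM (DAPMA1EVG013353), the lamin of the inner nuclear surface, had 299 and 728 CPM, a ratio of 2.43 (2.23 to 2.65). Across young codes, SUN1/KOI spanned 238 CPM in Y2 to 318 CPM in CH1 and LMNA/LAM 286 to 307 CPM. MSP300, whose choice drew on its difference between codes, spanned 5829 to 28646 CPM.

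The gene that was higher in the mixed sample was RANBP1/NUP358 (DAPMA1EVG013899), named after a nuclear pore protein, at 4.06-fold (3.27 to 5.09). RANBP2/NUP358 (DAPMA1EVG031762) had a ratio of 2.24, NUP210/GP210 (DAPMA1EVG023435), a pore membrane protein, 1.42, LEMD3/MAN1 (DAPMA1EVG032786), an inner membrane protein, 2.79, and TOR1B/TORSIN (DAPMA1EVG025860), an ATPase of the envelope, 1.45. LBR/LBR (DAPMA1EVG002518), the lamin B receptor, was the member that was lower, with 79.5 CPM in the young and 12.6 CPM in the mixed sum. Like MSP300 it was highest in Y2, at 189 CPM beside 48.6 in CH1 and 46.25 in CH2, and higher in young barcodes of 100 to under 200 UMIs (232.5 CPM) than in those of at least 2000 (18.9 CPM). Its r with MSP300 was 0.17. The other 7 members had r from -0.32 (NUP210/GP210) to -0.10 (SUN1/KOI), so no member reached 0.3.

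Other large actin-linking proteins were compared in the same way. Of 11 genes on this list 7 had enough counts, 0 were higher and 1 lower, beside 13.6% and 11.1% of all genes. The median log2 ratio was -0.05, beside 0.52 over all genes. ACTN1/ACTN (DAPMA1EVG013827), the alpha-actinin that crosslinks actin at the Z-disc, had 823 and 611 CPM, a ratio of 0.742 (0.694 to 0.792), and an r with MSP300 of 0.15 in the young sample. MACF1/SHOT (DAPMA1EVG015074), a spectraplakin, had 339 and 482 CPM, SPTAN1/ALPHA (DAPMA1EVG031339), an alpha-spectrin, 404 and 391 CPM, and SPTBN1/KST (DAPMA1EVG020914), a beta-heavy spectrin, 106 and 120.5 CPM. TRIO/TRIO (DAPMA1EVG014341), a guanine nucleotide exchange factor with spectrin repeats, had 258 and 269 CPM. DMD/DYS (DAPMA1EVG032597), a dystrophin, had 30.2 and 9.36 CPM. The member that was lower, PLEC/SHOT, had 67.0 and 7.20 CPM. It shares its transcript identifier with MACF1/SHOT, so reads may be split between them and both values are uncertain.

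The other lists bear on muscle, on transport and on the general content of a barcode. Beside them, 11.1% of all genes tested were at least 4-fold lower in the mixed sample and 13.6% higher. The sarcomere list had 3 of 17 tested genes lower and 1 higher, with FLNA/CHER, a filamin, at 1740 and 583 CPM TTN/SLS, a titin-like protein, at 661 and 154 CPM and ZNF593/WUPA, a troponin I by its fly symbol, at 150.4 and 267 CPM. The dynein and kinesin list, which serves nuclear transport along microtubules, had 0 of 10 in either direction, with PAFAH1B1/LIS at 303 and 427 CPM, KIF5C/KHC at 322 and 366 CPM and DYNLL2/CTP at 91.2 and 236 CPM. Cytosolic ribosomal proteins had 0 of 62 lower and 5 higher, and their r with MSP300 ran from -0.33 to -0.03 over 57 genes, RPL10/RPL10 being the lowest. RPL10/RPL10 had 2457 and 2259 CPM, RPL18/RPL18 1668 and 1652 CPM and RPL19/RPL19 1422 and 1697 CPM. Genes named as mitochondrially encoded had 4 of 6 lower and 2 higher, with MT-CO2/MT:COII (m000184F_s0.2) at 44.5 and 4922 CPM, opposite to both copies of MT-ND1/MT:ND1. That was the list with members, 2 of 3, at an r of at least 0.3, and no other list had any.

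Other genes of the contig were lower in the mixed sample about as often as all genes. Of the tested genes among 483 others on 000015F, 23 (10.1%) were at least 4-fold lower in the mixed sample, beside 11.1% of all genes, and 33 higher. The 3 genes listed before MSP300 (s000015F_p0.19, DAPMA1EVG021466 and m000015F_s0.15) and the 3 after the second copy (m000015F_s0.10, m000015F_s0.11 and m000015F_s0.12) had 0 counts in kept young barcodes and at most 4 in kept mixed barcodes. No other gene carries the transcript identifier of MSP300.

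Markers of cell types that a whole body holds were lower in the mixed sample in 0 to 5 genes a list. By the same rule 11.1% of all genes tested were lower and 13.6% higher. Of tested muscle markers 1 of 9 was at least 4-fold lower in the mixed sample and 0 were higher, and of neuron markers 0 of 7 were lower and 1 higher, with SYT1/SYT1, a sensor of transmitter release, at 583 and 556 CPM, DNAJC5/CSP, a chaperone of synaptic vesicles, at 139 and 91.4 CPM and STX1A/SYX1A, a syntaxin, at 112 and 97.9 CPM. Photoreceptor markers had 1 of 15 lower and 8 higher. OPN4/RH2, an opsin, was at 28.95 and 369.9 CPM (DAPMA1EVG031945) and at 22.04 and 331 CPM (DAPMA1EVG025431). PLCB4/NORPA, a phospholipase of vision, was at 125 and 229.9 CPM. Among mixed codes, FYH had 4154 and 3630 CPM of these opsin genes and the others at most 84.4 and 89.7 CPM (both FYB). Summed over the list, photoreceptor markers were at 13634 CPM in FYH and 492 to 858 CPM in the other mixed codes. Hemocyte markers had 1 of 16 lower and 4 higher, with COL2A1/COL4A1, a collagen, at 1190 and 766 CPM, PAPLN/PPN, papilin, at 1178 and 895 CPM and SPINT3/PPN at 81.7 and 1260 CPM. Replication markers had 0 of 7 lower and 1 higher, with MCM4/DPA, part of the replicative helicase, at 157 and 266 CPM, RRM2/RNRS and RRM1/RNRL, the subunits of ribonucleotide reductase, at 121 and 291 CPM and at 122 and 166 CPM. Germline markers had 0 of 7 lower and 2 higher, with PIWIL1/AUB at 387 and 315 CPM (DAPMA1EVG012030) and at 353 and 122 CPM (DAPMA1EVG018095) and TDRD1/TUD at 21.2 and 406 CPM. Epidermis markers had 5 of 30 lower and 4 higher, with CPR49AG, a cuticle protein, at 666 and 483 CPM (DAPMA1EVG029382) and at 536 and 609.5 CPM (DAPMA1EVG029381) and ARPP19/CPR49AE at 1295 and 72.7 CPM. Summed over a list, muscle markers were at 1011 CPM in CH1, 1223 in CH2 and 2085 in Y2, the code where MSP300 was highest. Among the young codes, photoreceptor markers (860, 779 and 1404 CPM) and germline markers (895, 925 and 972 CPM) were highest in Y2 as well. Neuron, hemocyte, replication and epidermis markers were lowest in Y2 among these codes. The part of any of these in the level of MSP300 was not tested.

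Because MSP300 is known from muscle, its level was read in barcodes rich in muscle markers, a measure that did not enter its choice. A barcode of at least 1000 UMIs counted as rich when the list held at least 5 UMIs and 1% of its UMIs, and was compared with barcodes without a UMI of the list. This is a range of marker content and not a cell type, and 9 mixed barcodes lay just below the limit, at 3 UMIs and 0.5% or more.

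In the mixed sample MSP300 was high in muscle-rich barcodes. There were 9 of them, 7 in FYB and 2 in MY2, with 1022 to 1730 UMIs and 25 to 97 muscle UMIs each. Each of the 9 held MSP300, with 1 UMI at the lowest, 3 at the median and 5 at the highest. Together they had 30 MSP300 counts, 2793 CPM (1885 to 3988), where 578 barcodes without muscle UMIs had 257 counts, 251 CPM (221 to 284), a ratio of 11.1 (7.36 to 16.3). Of the latter, 24.7% had an MSP300 UMI, at a median depth of 1504 UMIs beside 1121 in the rich barcodes. Of 1258 other genes with at least 200 counts over these barcodes, 1.99% were at least 4-fold higher in the rich ones and 34.7% at least 4-fold lower, and MSP300 ranked 9. Within FYB the levels were 2559 and 111 CPM, and within MY2 3733 and 499.4 CPM.

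The muscle UMIs of these 9 barcodes came from ZNF593/WUPA with 175 UMIs, MYL4/MLC1, a myosin light chain, with 165, and MYH6/PRM, paramyosin in the fly, with 112. TTN/BT and TTN/SLS, both titin-like, had 51 UMIs each. ACTN1/ACTN was 5.56-fold higher there (3.88 to 7.74). SUN1/KOI, with 3 counts, had a ratio of 0.834 (0.171 to 2.46), LMNA/LAM, with 2 counts, 0.226 (0.0273 to 0.818) and MACF1/SHOT, with 2 counts, 0.499 (0.0602 to 1.815).

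In the young sample the MSP300 level of muscle-rich barcodes was close to that of barcodes without muscle UMIs. The 14 barcodes (5 in CH1, 5 in CH2, 4 in Y2) held 2 MSP300 UMIs at the lowest, 8 at the median and 38 at the highest. Their level was 5664 CPM (4810 to 6625) beside 5472 CPM (5265 to 5684) in 312 barcodes without muscle UMIs, a ratio of 1.035 (0.875 to 1.22). Of 456 genes, 4.61% were at least 4-fold higher and 34.2% at least 4-fold lower. The median gene had a ratio of 0.474, and MSP300 ranked 83 from the highest, so it lay above most genes. The codes entered the 2 sets in unequal shares, Y2 with 4 of 14 rich barcodes and 35 of 312 others. Within codes, the rich and other barcodes had 4755 and 4111 CPM in CH1, 2609 and 3750 CPM in CH2 and 12394 and 17661 CPM in Y2, so the rich ones were lower in 2 of 3 codes. The ratio was 0.926 without CH1 and 0.899 without Y2. The rich barcodes had a median of 2105 UMIs and the others 1358, and in barcodes of 1000 to under 2000 UMIs alone the ratio was 1.28 (1.004 to 1.62). Of the muscle UMIs of these barcodes, 419 were TTN/SLS. ACTN1/ACTN was 3.32-fold higher in them (2.61 to 4.19), MACF1/SHOT 5.62-fold (3.79 to 8.15) and LMNA/LAM 3.58-fold (2.20 to 5.58), and SUN1/KOI had a ratio of 0.858 (0.309 to 1.92). The level in young barcodes without muscle UMIs exceeded that in the muscle-rich mixed barcodes, and young barcodes of 100 to under 200 UMIs had 35966 CPM. The part of free RNA in these young levels was not tested.

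**Figure D5:**
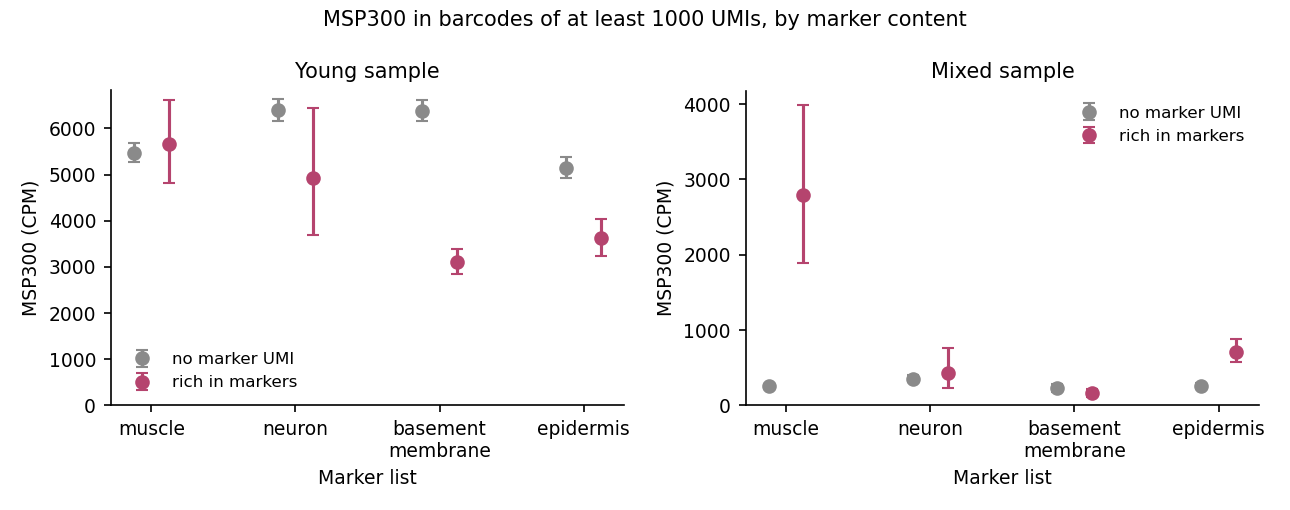
Level of MSP300 in barcodes of at least 1000 UMIs rich in a marker list and in barcodes without its UMIs, in CPM with exact Poisson intervals at 95%, for the young and the mixed sample. Muscle-rich barcodes of the mixed sample reach 2793 CPM beside 251 CPM, and those of the young sample 5664 CPM beside 5472 CPM.

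In the mixed sample the other marker lists with more than 5 rich barcodes gave smaller differences than muscle, and in the young sample larger ones. In the mixed sample 70 epidermis-rich barcodes, 57 of them in FYB, had 714 CPM of MSP300 (576 to 876) beside 255 CPM (218 to 296), a ratio of 2.80 (2.15 to 3.64) where 10.7% of 815 genes were at least 4-fold higher and 25% at least 4-fold lower. Within FYB the levels were 806 and 197 CPM. Neuron-rich barcodes, 19 in all, had 434 CPM beside 352 CPM, with an interval of the ratio from 0.6295 to 2.19. In 158 barcodes rich in markers of basement membrane producing hemocytes the level was 161 CPM beside 226.9 CPM, with an interval of the ratio from 0.481 to 1.03, which includes 1. The codes did not share a direction: the levels were 142 and 163 CPM in FYB, 39.2 and 483 CPM in MY2 (1 count in its rich barcodes) and 359 and 126 CPM in FYH (16 and 5 counts). Among young barcodes the 109 rich in these hemocyte markers had 3112 CPM beside 6386 CPM, and the order held in each code, with 2118 and 4216 CPM in CH1, 2746 and 4027 CPM in CH2 and 8309 and 18712 CPM in Y2. The ratio of 0.487 ranked 387 of 594 genes from the highest, beside a median gene at 0.783. Young epidermis-rich barcodes had 3621 CPM beside 5148 CPM and neuron-rich ones, 7 in all, 4931 CPM beside 6392 CPM, with an interval of the ratio from 0.576 to 1.01. Here the median gene fell further than MSP300. For epidermis the ratio was 0.703 beside a median of 0.491 (rank 140 of 441), and for neuron 0.771 beside 0.314 (rank 109 of 414). Photoreceptor, replication and germline markers gave 5, 0 and 1 rich barcodes in the mixed sample and 0 of each in the young sample.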

How the data were processed

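The deposited files of both samples hold UMI counts per barcode and gene, with lists of barcodes and genes. The counts are whole numbers and not normalized. Aligner, genome build, annotation and barcode filters are not given in the sources used here. Gene names are those of the deposited gene lists, and no gene coordinates or sequences are used. Members and gene lists were chosen with earlier results of these data known.

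Barcodes of at least 500 UMIs were kept and summed per sample and per library code, which is a technical unit and not a replicate. Levels are counts per 1000000 UMIs (CPM) of these sums, with exact Poisson, Clopper-Pearson or conditional binomial intervals at 95% that cover counting error only. Ratios across genes took genes of 50 or more counts in both sums together (200 for marker-rich barcodes), a count under 3 being set to 3, and a limit of 4-fold. Doublets were not removed. Correlations used barcodes of at least 1000 UMIs, genes with at least 50 counts and present in 5% of the barcodes, and codes with at least 30 such barcodes; totals left out MSP300, and a code where a gene had no UMI was left out of its mean. Named were the 10 highest and 5 lowest genes by mean r per sample, each tested member of the nuclear envelope and actin-linking lists, the listed neighbours (3 on each side, by place in the gene list and not by gene number, since the numbers on the contig do not run together) and, from other lists, the 3 most abundant members. Other genes were named after their values were seen.

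Python 3.11.15 with numpy 2.4.6, scipy 1.17.1 and pandas 2.3.3 was used. TMM factors came from edgeR 4.0.16 (R 4.3.3), which gave no test here. The procedures were tested on simulated data.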

Additional observations from a re-analysis of the deposited data

How the results depend on the processing

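The young level of MSP300 depended on the barcodes used. It was 19226 CPM with a minimum of 300 UMIs, 5542 CPM with 1000, 29308 CPM over every deposited barcode and 16825 CPM as a mean of barcode shares, and 6873 to 15238 CPM with 1 code left out, lowest without Y2. The mixed level was 203 CPM over every barcode and 239.5 to 359 CPM with 1 code left out. The ratio of young to mixed was 65.3 at 300 UMIs, 17.9 at 1000, 144 over every barcode, 51.6 with TMM and 52.3 with median of ratios scaling, which shift all log2 ratios by 0.42 and 0.44, and 22.4 to 49.8 with 1 code left out. Every one of these kept the young sample higher.

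The ratio of Y2 to CH2 was 3.48 at 300 UMIs, 3.84 at 1000, 1.38 over every barcode, 7.38 with TMM, 1.14 at 100 to under 200 UMIs and 3.10 at 2000 or more. Thinned to 1000 UMIs, 19.8% of mixed barcodes had an MSP300 UMI. The ratio of shallow to deep barcodes was 17.4 in CH1, 21.6 in CH2 and 7.95 in Y2, and 0.710 in FYB, 0.743 in FYH and 0.670 in MY2, with the opposite direction in FO2 (1.13) and MY1 (1.06). Young genes with an r of at least 0.3 numbered 38 after thinning and 41 to 160 with 1 code left out. Mixed genes numbered 4 at 2000 UMIs, 1 after thinning, 1 with barcodes pooled, 3 at 1000 to under 2000 UMIs and 0 to 1 with 1 code left out. The young muscle ratio was 0.561 at a minimum of 500 UMIs, 1.28 at 1000 to under 2000 UMIs, 1.39 at a 2% and 0.898 at a 0.5% marker share, and 0.899 to 1.17 with 1 code left out. The mixed muscle ratio was 5.95 at 0.5% and 10.5 to 15.2 with 1 code left out. The cause of these shifts was not tested. The marker settings and the depth classes of Y2 over CH2 were added after seeing the data.

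No paired analysis was possible because there was 1 sample per group. Counts of 0 to 9 in F4W, FO1 and FO2 limit their levels.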
